A study of Caenorhabditis elegans with 2 samples.

Results

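Small subunit ribosomal protein genes are the nuclear genes for the proteins of the cytosolic 40S ribosomal subunit. They were taken here as every gene whose symbol is rps- followed by a digit in the Ensembl WBcel235 gene models, which gave 31 of 19985 protein-coding genes. They were described across peak lists from chromatin immunoprecipitation followed by sequencing (ChIP-seq), which recovers the DNA a protein was bound to. The protein was CEH-91, a homeobox protein of Caenorhabditis elegans, tagged with TY1, EGFP and 3xFLAG at its own gene on chromosome III by CRISPR insertion (strain RW12305) and pulled down through GFP. Both samples were whole young adult worms of 62.5 hours brought into step by bleaching and L1 starvation. They are biological replicates 1 and 2 of 1 group. The tag is present in both, the strain is the single line named by the labels, and whole worms were used, so no cell type can be assigned to any peak. Replicates 1 and 2 were set against 1 and the same control alignment, per the deposited notes.

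The small subunit reads the messenger RNA: its head, platform and body hold the path of the messenger and the decoding centre, where codon and anticodon are matched before the large subunit joins. Ribosomal protein genes are among the most strongly transcribed housekeeping genes, and their products are needed in near equal amounts in every growing cell, the germline of an adult worm included. In this worm some of them carry small nucleolar RNA (snoRNA) genes in their introns. CEH-91 peaks were found upstream of most rps genes, in the sequences shown next.

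The windows below reach 50 bp to each side of the peak summit and were read from the WBcel235 (ce11) RefSeq genome 5′ to 3′ on the strand of the rps gene, with their coordinates. The first 3 come from 3 of the 5 highest listed rps peaks, and the next 6 are shown because they share words with each other or with these. Capitals mark words that recur among the rps windows, on either strand, which are described further on, and the windows of rps-24, rps-28 and rps-16 hold none of them.
rps-24 (IV:385485-385585, plus strand): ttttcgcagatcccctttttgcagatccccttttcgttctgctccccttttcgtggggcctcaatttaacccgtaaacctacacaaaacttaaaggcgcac
rps-23 (IV:12391287-12391387, minus strand): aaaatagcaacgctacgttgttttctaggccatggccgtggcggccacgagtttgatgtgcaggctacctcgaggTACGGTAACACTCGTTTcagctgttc
rps-28 (IV:1659202-1659302, plus strand): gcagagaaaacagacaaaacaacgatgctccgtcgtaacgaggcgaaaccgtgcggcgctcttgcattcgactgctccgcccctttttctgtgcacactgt
rps-13 (III:6375143-6375243, minus strand): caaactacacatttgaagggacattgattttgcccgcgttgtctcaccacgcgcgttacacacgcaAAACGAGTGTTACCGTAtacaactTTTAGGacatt
rps-0 (III:4754263-4754363, minus strand): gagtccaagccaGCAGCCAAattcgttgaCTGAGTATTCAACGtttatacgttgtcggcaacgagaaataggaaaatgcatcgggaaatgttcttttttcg
rps-3 (III:6206417-6206517, plus strand): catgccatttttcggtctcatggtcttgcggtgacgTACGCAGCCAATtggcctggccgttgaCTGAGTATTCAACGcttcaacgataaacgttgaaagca
rps-30 (V:7776294-7776394, plus strand): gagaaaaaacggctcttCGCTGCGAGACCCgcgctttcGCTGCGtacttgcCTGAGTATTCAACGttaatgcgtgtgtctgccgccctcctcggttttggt
rps-14 (III:7179819-7179919, minus strand): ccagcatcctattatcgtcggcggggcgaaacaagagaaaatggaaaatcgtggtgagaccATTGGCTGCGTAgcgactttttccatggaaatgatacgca
rps-4 (IV:7084877-7084977, minus strand): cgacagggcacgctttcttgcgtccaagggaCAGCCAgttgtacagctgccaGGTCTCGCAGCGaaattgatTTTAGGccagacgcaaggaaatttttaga
The next pair belongs to rps genes outside the conservative list. Among those, rps-21 had the highest ranked signal and rps-16 the fourth, and the windows of rps-6 and rps-7, which came between them, are not printed here.
rps-21 (III:7189860-7189960, minus strand): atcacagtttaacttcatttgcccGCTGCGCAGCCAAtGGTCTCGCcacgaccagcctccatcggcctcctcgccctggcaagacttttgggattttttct
rps-16 (V:15001258-15001358, minus strand): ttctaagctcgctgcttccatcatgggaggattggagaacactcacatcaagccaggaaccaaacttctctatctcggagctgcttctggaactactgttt

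The authors deposited a ranked and a thresholded peak list for each replicate, for a comparison of the replicates called conservative, and for a comparison that was taken to be the one on pseudoreplicates of the pooled reads. Peaks in a thresholded list are referred to as listed. A gene was counted as listed when a listed summit lay between 1000 bp upstream and 200 bp downstream of one of its annotated transcript starts. The global rate is the irreproducible discovery rate, which is low for peaks that repeat well between the inputs of a comparison, and every listed peak had at most 0.01. The signal is the authors' peak height, on a scale that depends on each library. The lists hold 1612 (conservative), 1716 (pooled), 1180 (replicate 1) and 974 (replicate 2) listed peaks and no read counts, so depth is unknown.

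CEH-91 was listed at 24 of 31 rps genes in the conservative list (77.4%), where 7.37% of protein-coding genes were listed. The pooled list held 26 of 31 rps genes (83.9%), against 7.65% of protein-coding genes. In replicate 1, 19 rps genes (61.3%) were listed, against 6.06% of protein-coding genes, and in replicate 2, 18 rps genes (58.1%), against 5.32%. Counting only genes with any ranked summit in the promoter window, 24 of 30 rps genes were listed in the conservative list, against 14.2% of 10400 protein-coding genes. The 24 listed rps genes rested on 24 distinct peaks. Rps genes fell into 8 patterns over the 4 lists: 16 were in all 4, 4 were in none, and the other 11 changed with the list. The matching shares of protein-coding genes by pattern were not counted. Both replicates listed 16 rps genes, all of them among the 24 of the conservative list. Of the 1473 protein-coding genes in that list, 913 (62%) were listed in both replicates. Replicate 1 alone listed 3 rps genes, replicate 2 alone 2, and 10 were in neither replicate. Of the 10, 5 were nevertheless in the conservative list (rps-8, rps-13, rps-17, rps-25 and rps-29), so 5 of 24 conservative rps genes had no listed peak in either replicate, against 15.2% of the 1473 listed protein-coding genes.

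The listed rps peaks were of middling to high strength. Their signal had a median of 175, from 80.1 to 548, and the median over all 1473 listed protein-coding genes was 149, with 15 of 24 rps genes above it and a highest coding value of 1151. By rank, 11 rps peaks were among the 403 strongest listed peaks, 6 among the next 403, 5 among the 403 after those and 2 among the rest. Listed protein-coding genes had 34.8%, 30%, 22.5% and 12.7% of their number in those 4 bands. Only 3 rps genes, rps-24, rps-23 and rps-19, were among the 161 strongest peaks. In replicate 1 the listed rps genes had a median signal of 113, against 109 over listed protein-coding genes, and in replicate 2 of 91.9, against 70.9.

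**Figure D1:**
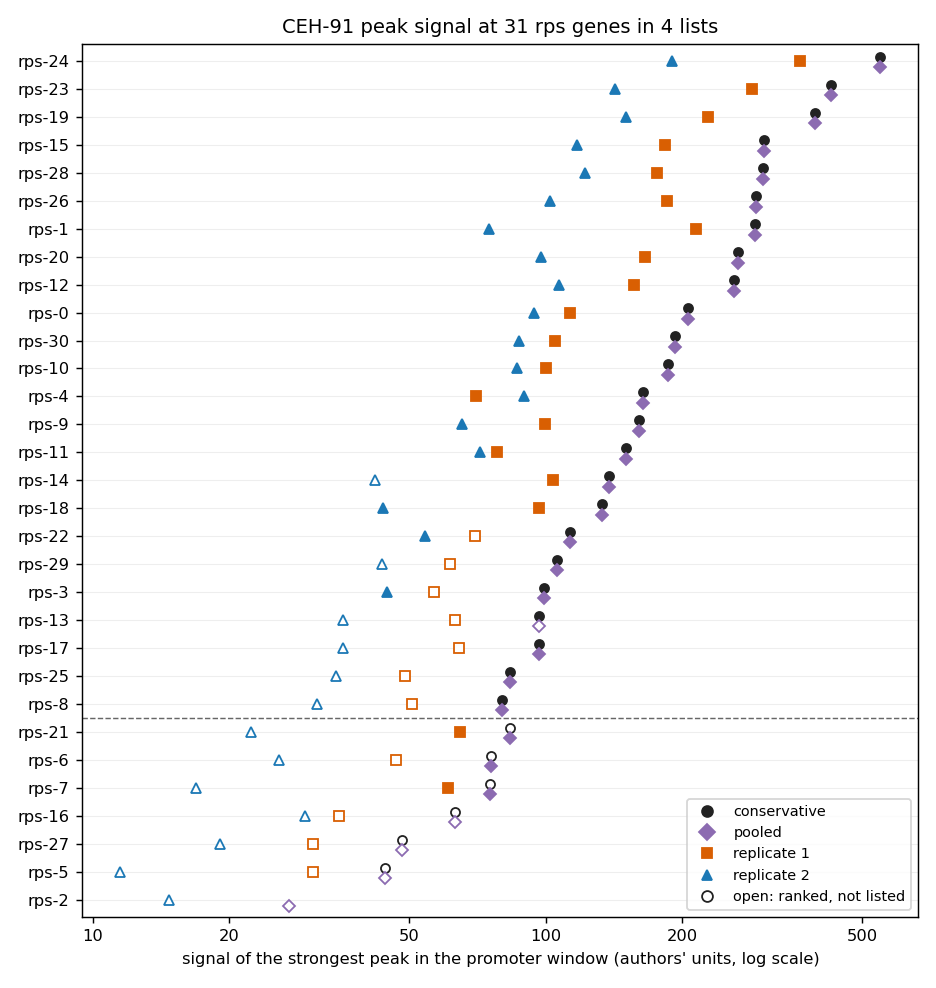
Signal of the strongest peak in the promoter window (horizontal, authors' units, log scale) for each of the 31 rps genes, with filled symbols for listed peaks and open symbols for peaks that were only ranked; genes run down by conservative signal, and those below the dashed line were not in the conservative list. Among the listed rps genes the conservative signal ran from 548 at rps-24 to 80.1 at rps-8, and below the dashed line it went down to 44.2 at rps-5. For 30 rps genes the pooled comparison had the same peak at the same signal.

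The proteins of the head of the subunit were encoded by 13 rps genes, of which 11 were listed in the conservative list with a median signal of 186. This division into head, platform and body follows ribosome structures from yeast and human cells and was made after the values were known. The strongest in the head was rps-19, whose human counterpart is mutated in Diamond-Blackfan anaemia. Its peak at I:9625980-9626178, 283 bp upstream of the start, had a signal of 392 in the conservative list, 228 in replicate 1 and 150 in replicate 2. For rps-15, whose protein reaches towards the decoding centre, the values were 303, 183 and 117 in the same order, at I:8816488-8816654. The gene rps-28, whose protein lies by the exit of the messenger path, had 302, 176 and 122 at IV:1659173-1659325. All of these were listed in all 4 lists, with replicate 1 above replicate 2 at each.

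The middle of the head group held rps-20, rps-12 and rps-10. The gene rps-20 had a signal of 266 in the conservative list, 166 in replicate 1 and 97.8 in replicate 2. For rps-12, a protein of the beak of the head, the values were 261, 157 and 107, and for rps-10 they were 186, 100 and 86.4. All of these were listed in both replicates. For rps-18, a protein at the contact between head and large subunit, the conservative signal was 133, with 96.5 in replicate 1 and 43.8 in replicate 2, both listed. Lower down, rps-29, a zinc-binding protein, had a conservative signal of 106, with 61.4 in replicate 1 (rate 0.0114) and 43.5 in replicate 2 (rate 0.401), so neither replicate listed it. For rps-3, which lines the entry of the messenger path, the conservative signal of 99.0 came with 56.6 in replicate 1 (rate 0.117) and a listed 44.6 in replicate 2. At rps-17 the conservative signal was 96.4, with 64.4 in replicate 1 (rate 0.261) and 35.7 in replicate 2 (rate 0.694). At rps-25 it was 83.6, with 48.9 in replicate 1 (rate 0.178) and 34.5 in replicate 2 (rate 0.711). Both were thus listed in the conservative and the pooled list and in neither replicate, where they stood above 94.4% or more of the ranked peaks. The protein of rps-25 is known in yeast and human cells for its part in initiation on viral internal entry sites.

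The platform carries the exit of the messenger path, and 4 of its 5 rps genes were in the conservative list, with a median signal of 248. The peak of rps-26, whose protein contacts the messenger just upstream of the start codon, had 291 in the conservative list, 185 in replicate 1 and 102 in replicate 2. For rps-1 the conservative signal was 290 at III:4475580-4475761, with 215 in replicate 1 and 74.8 in replicate 2, the widest ratio between replicates among listed rps genes. The gene rps-0, the counterpart of the human laminin receptor protein RPSA, had 206, 113 and 94.2 at III:4754312-4754393. These 3 were listed everywhere. For rps-14 the conservative signal was 138, with a listed 104 in replicate 1 and an unlisted 42.0 in replicate 2 (rate 0.186).

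The body of the subunit was encoded by 13 rps genes, of which 9 were in the conservative list, with a median signal of 161. It held the highest rps peak of all, at rps-24 (WBGene00004493, IV:385395-385684, 352 bp upstream of the start), with a signal of 548, ranked 55th of the 1612 listed peaks, and with 364 in replicate 1 and 190 in replicate 2. Next came rps-23, whose protein sits at the decoding centre, with 426, 286 and 142 at IV:12391237-12391449. Both were listed in all 4 lists. The ubiquitin-like fusion gene rps-30 had 193, 105 and 87.2, and rps-9, whose protein lines the entry of the messenger path, had 161, 99.7 and 65.3. For rps-11 the values were 150, 78.2 and 71.5. At rps-4 the conservative signal was 164, with 70.0 in replicate 1 and 89.5 in replicate 2, and this was the only listed rps gene with the higher value in replicate 2. Its rate in replicate 1 was 0.0099, just under the threshold.

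The weakest listed genes of the body turned on the list used. For rps-22, which encodes the counterpart of human RPS15A, the conservative signal was 113, with an unlisted 69.7 in replicate 1 (rate 0.0149) and a listed 54.0 in replicate 2. Its promoter window held a second listed summit, 61 bp upstream of a start, with a signal of only 4.09. For rps-13 the conservative signal of 96.6 was listed with a rate of 0.00139, while the pooled comparison gave the same peak a rate of 0.0768 and left it out, and the replicates had 62.9 (rate 0.750) and 35.7 (rate 0.221). At rps-8 the conservative signal was 80.1, the lowest of the listed rps genes, with an unlisted 50.7 in replicate 1 (rate 0.0743) and 31.3 in replicate 2 (rate 0.325).

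The 7 rps genes outside the conservative list were rps-2, rps-5, rps-6, rps-7, rps-16, rps-21 and rps-27. For rps-21, on the platform, the conservative comparison gave a signal of 83.4, above the 80.1 of the listed rps-8, with a rate of 0.0487. Its peak was listed in the pooled list and in replicate 1, with a signal of 64.7, and not in replicate 2, with 22.4 (rate 0.807). The gene rps-7 had a conservative signal of 75.5 (rate 0.695), and its peak was also listed in the pooled list and in replicate 1 (60.8) but not in replicate 2 (16.9, rate 0.822). At rps-6, whose protein is the substrate of S6 kinase, the conservative signal was 75.9 with a rate of 0.805, and the pooled list alone held it, with a rate of 0.00654. The replicates had 46.8 (rate 0.0450) and 25.8 (rate 0.440) there, with summits 150 bp apart. These 3 genes were split between lists, and none was listed in replicate 2. By signal their conservative peaks stood above most of the 53026 ranked ones, rps-21 above 97.1% of them and rps-6 and rps-7 above 96.6%. Only 1700 of the 53026 had a rate of at most 0.01, so most of the peaks they stood above had not passed. The places of other unlisted promoter peaks were not counted.

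The other 4 were in none of the lists. At rps-16, whose protein tail reaches the tRNA in the peptidyl site, the strongest ranked peak of the conservative comparison had a signal of 62.9 (rate 0.0468) and lay 767 bp upstream, within an exon of fib-1. The replicates had 35.0 (rate 0.587) and 29.4 (rate 0.872) there. The gene fib-1, which encodes the snoRNA-guided methyltransferase fibrillarin, lies on the same strand and ends 109 bp before rps-16. Its own start had a listed peak of signal 262 at V:15002209-15002363, listed in all 4 lists, and 1762 bp from the start of rps-16. For rps-27, a zinc-binding protein, the strongest ranked peak had a signal of 48.1 (rate 0.371) and lay inside an intron of the gene itself, past its start, while another of 41.3 (rate 0.249) lay 599 bp upstream. In the replicates the stronger peak was the upstream one, with 30.6 in replicate 1 (rate 0.611, 600 bp upstream) and 19.1 in replicate 2 (rate 0.627, 446 bp upstream). For rps-5 the conservative signal was 44.2 (rate 0.763), with 30.7 in replicate 1 (rate 0.644) and 11.5 in replicate 2 (rate 0.934). The conservative peaks of rps-16, rps-27 and rps-5 stood above 94.7%, 87.4% and 83.1% of the ranked peaks. At rps-2 neither the conservative comparison nor replicate 1 had any ranked summit in the window. The pooled comparison had 3, the strongest of 27.1 (rate 0.894), and replicate 2 had 2, the stronger of 14.7 (rate 0.743). The nearest listed conservative summit was 20691 bp away.

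The gene next upstream was on the opposite strand at 19 of the 24 listed rps genes and on the same strand at 5. Among the 7 unlisted rps genes it was on the opposite strand at 3 and on the same strand at 4. A coding gene on the same strand ended within 500 bp upstream of 4 rps genes, namely rps-2, rps-7, rps-16 and rps-17, and of these only rps-17 was in the conservative list. These counts are small and were not tested. The matching shares over all protein-coding genes were not counted, so they do not show a trait of listed rps genes.

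Listed summits lay close upstream of the rps starts. The median distance was 282 bp, from 148 bp at rps-22 to 569 bp at rps-18, with quartiles of 233 and 351 bp, and over all listed protein-coding genes it was 257 bp, with quartiles of 145 and 439 bp. None of the 24 summits lay downstream of the start. Of the 24, 19 lay outside any annotated gene, 4 in non-coding RNA genes and 1 in an exon of a coding gene. That one was rps-18, whose summit was within sec-61.A, the gene of a subunit of the protein-conducting channel of the endoplasmic reticulum. The first annotated rps transcript start lay a median of 13 bp before the start codon, and at most 20 bp in 22 of 31 genes. Matching counts over protein-coding genes were not made for downstream summits, for summits inside genes or for the distance to the start codon. These rps counts thus do not show a trait of rps genes. Many messengers of this worm are trans-spliced, and an annotated start need not be where transcription begins, so the distances are to the annotated start only.

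**Figure D2:**
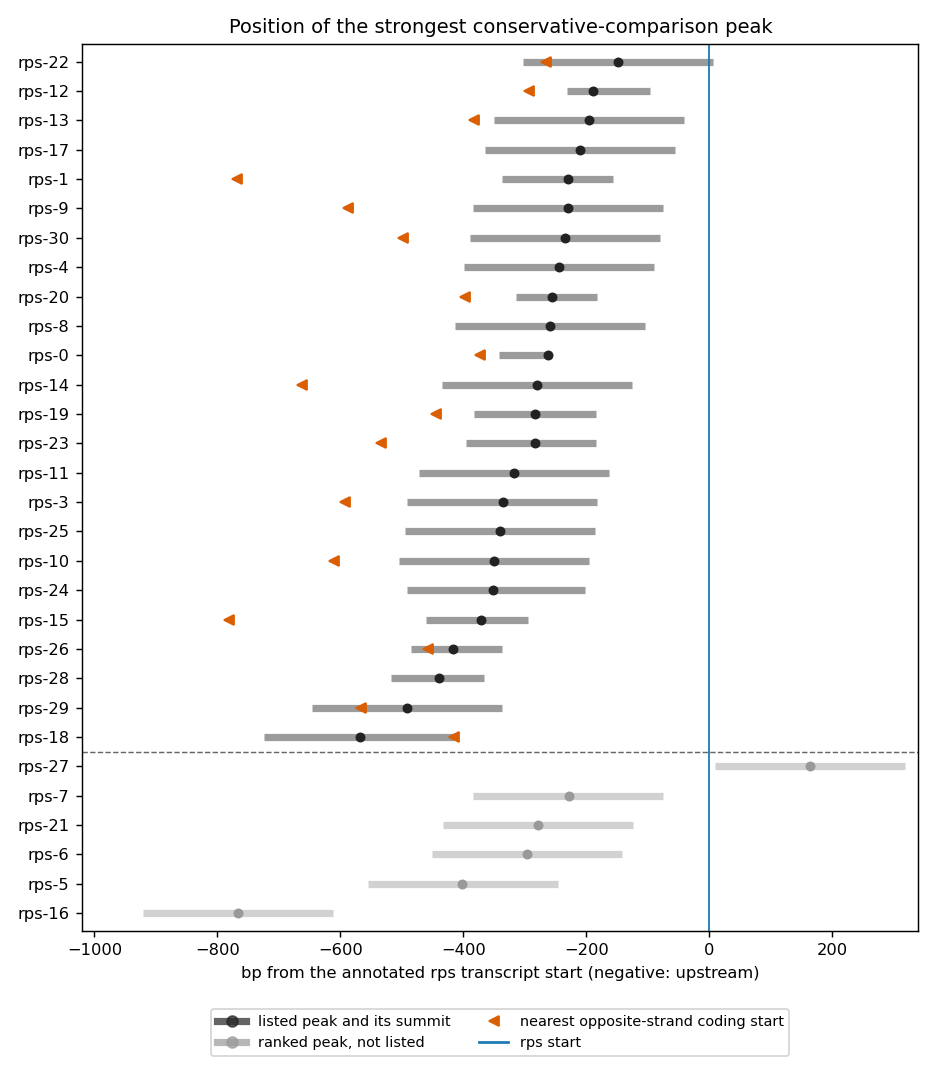
Peak span (bar) and summit (point) of the strongest peak at 30 rps genes in the conservative comparison, in bp from the annotated rps start (vertical line). Triangles mark the nearest opposite-strand coding start whose promoter window held the summit. They were drawn for listed rps genes only, so a missing triangle below the dashed line does not mean that there was no such start. All 24 listed summits, above the dashed line, lay 148 to 569 bp upstream, and 17 of them lay in the window of a divergent neighbour.

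Most rps peaks were shared with a neighbour. At 17 of 24 listed rps genes (70.8%) the summit also lay in the promoter window of a coding gene on the opposite strand, against 426 of 1114 listed coding promoter peaks (38.2%) that had coding starts on both strands. The 38.2% is a share of peaks and not of genes, and a peak with starts on both strands is counted there a single time. The share by genes was not computed, so the contrast is not like for like. At 4 rps genes the summit lay in no other gene's window, with RNA genes and pseudogenes counted too. The matching share over all listed coding promoter peaks was not counted. Pairs of ribosomal protein genes shared 3 of the peaks: rps-10 with rpl-24.1, rps-14 with rpl-36 and rps-30 with rpl-39, each the start of a large subunit gene in the other direction. Other opposite neighbours were ifet-1 at rps-1, whose product represses translation in the germline, lsm-1 at rps-9, whose product acts in mRNA decay, nfx-1 at rps-13, dpm-3 at rps-23, hsr-9 at rps-19, polh-1 at rps-22, which encodes a translesion DNA polymerase, and snt-2 at rps-29, a synaptotagmin gene. The rest were ndab-2, a second one at rps-14 with its start 883 bp from the summit, rbg-3 at rps-0, sna-3 at rps-3, ska-3 at rps-12, F36A2.9 at rps-15, sec-61.A at rps-18, ekl-4 at rps-20 and tmem-107 at rps-26. On the same strand, Y41D4B.4 shared the peak of rps-28, and C26F1.3, whose start lay 956 bp from the summit, shared that of rps-30. At rps-24 the window of an opposite-strand pseudogene held the summit. A peak cannot be divided between the neighbours from these lists.

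The rps start was the nearest coding start to the summit in 12 of 24 cases. At rps-26 the summit was 40 bp from the start of tmem-107 and 417 bp from that of rps-26, and at rps-29 it was 76 bp from the start of snt-2 and 491 bp from that of rps-29. At rps-1 the order was the other way round, with 230 bp to rps-1 and 538 bp to ifet-1. When each summit was given only to the nearest annotated start of any gene, RNA genes included, 11 rps genes stayed listed, of which 10 kept their strongest peak. The gene rps-22 stayed through its second summit of signal 4.09 alone, its main peak being nearer polh-1. The share of protein-coding genes listed was then 4.63%. Rps peaks with a divergent coding start had a median signal of 193, from 96.6 to 426 (n = 17), and those without one had 150, from 80.1 to 548 (n = 7), so the ranges overlapped almost entirely.

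Within the listed rps genes, snoRNA genes lay inside 5 (rps-4, rps-12, rps-13, rps-23 and rps-29) and inside 0 of the 7 unlisted ones. At 7 listed rps genes, those 5 among them, the summit lay within the promoter window of a snoRNA gene as well. The matching shares over all protein-coding genes were not counted, and these small counts were not tested. By chromosome, 6 of 8 rps genes on I were listed, 1 of 1 on II, 8 of 9 on III, 8 of 10 on IV and 1 of 3 on V. Over protein-coding genes the listed shares were 12.2%, 8.38%, 13.4%, 7.16% and 4.67% in the same order. No rps gene lies on X, where 0.33% of coding genes were listed.

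The conservative list keeps peaks that repeat between these replicates, so their agreement at listed rps peaks was in part set by that filter. Ranked peaks of both replicates lay on all 24 conservative peaks, and the signal was higher in replicate 1 at 23 of them. The log2 ratio of replicate 1 over replicate 2 had a median of 0.60, from -0.35 at rps-4 to 1.52 at rps-1, with an SD of 0.40 over the 24 genes. Over 1108 listed coding promoter peaks the median was 0.75 with an SD of 0.40, and 3.52% of them were higher in replicate 2. Both values depend on the scale of each library, so the offset is no measure of binding. Over the 24 rps genes, Spearman's rho between replicates was 0.879 and Pearson's r of the log2 signals was 0.873, and over the 1108 coding promoter peaks they were 0.811 and 0.888. These are given as a description, since the peaks passed the same filter and share libraries and control. The summits of the replicates lay a median of 21.5 bp apart at the rps peaks, at most 81 bp (rps-18), and a median of 19 bp apart over the coding promoter peaks. They were within 20 bp at 11 of 24 rps genes and at 52.3% of the coding promoter peaks.

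**Figure D3:**
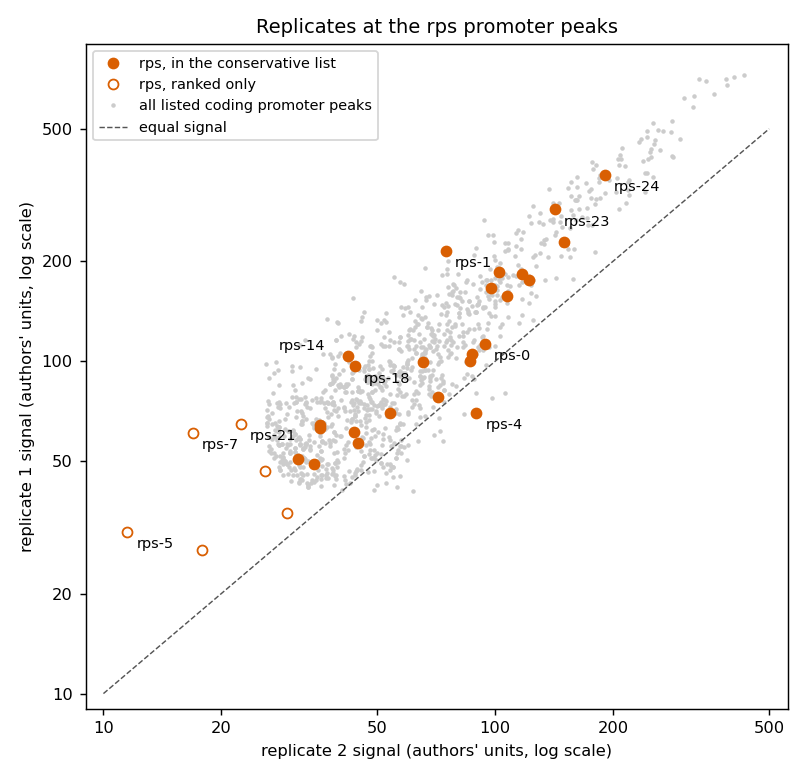
Signal in replicate 1 (vertical) against replicate 2 (horizontal), both in the authors' units on log scales, at the conservative peak of each rps gene (orange, open where the gene was only ranked) and at 1108 listed coding promoter peaks (grey), with a dashed line of equal signal. Of the listed rps genes only rps-4 lies below the line, and rps-1 is the farthest above it.

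The listed share varied between groups of translation genes. The groups were chosen with earlier results of these data known. Large subunit genes (rpl- genes, rla- genes of the acidic stalk proteins and ubq-2) were listed at 31 of 51 (60.8%) in the conservative list, with a median signal of 175, the same as for rps genes, and a highest signal of 1039 at rpl-3, against 548 at rps-24. The rps share was 77.4% there. In replicate 1 the shares were 61.3% of rps genes and 60.8% of large subunit genes, and in replicate 2 they were 58.1% and 51%, so the gap depended on the list. Of the 2 partners of the small subunit outside the symbol rule, neither was in the conservative list. The ubiquitin fusion gene ubl-1 had a signal of 81.8 (rate 0.0267) and was listed in the pooled list and in replicate 2, with 51. The scaffold gene rack-1 had 38.0 (rate 0.694) and was in no list. Initiation factor genes were listed at 5 of 21 (23.8%), from 79.3 at eif-3.G to 226 at eif-3.C. Genes of small subunit assembly were listed at 4 of 17 (23.5%), among them fib-1 with 262 and nol-58 with 164, both box C/D snoRNP proteins. Mitochondrial small subunit genes were listed at 3 of 29 (10.3%), near the 7.37% of all protein-coding genes, and at 0 of 29 in replicate 2.

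**Figure D4:**
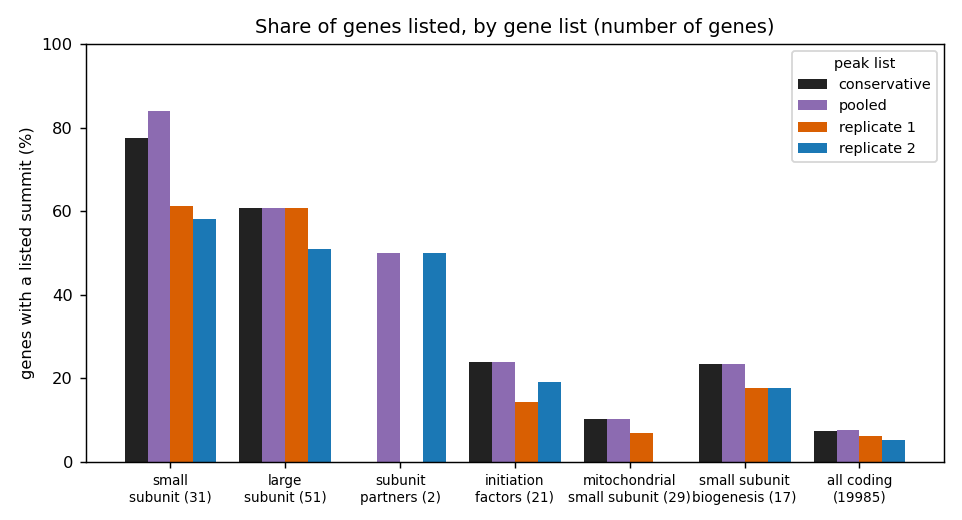
Share of genes with a listed summit in the promoter window (vertical, percent, from 0) for 6 gene lists and all protein-coding genes (horizontal, number of genes in brackets), with 1 bar for each peak list and no error bars. Small subunit genes stand at 77.4% in the conservative list, large subunit genes at 60.8%, mitochondrial small subunit genes at 10.3% and all protein-coding genes at 7.37%.

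The rps summit windows were rich in G and C for this genome. The median GC content of the same windows was 50% at listed rps genes, from 27.7% at rps-18 to 56.4%, and 49.5% at the 6 rps genes with a ranked peak only. It was 50.5% at the 31 listed large subunit genes and 44.6% at the 1090 other listed coding promoter peaks, which are all but those 24 of the rps genes and so hold 28 of the large subunit peaks. The other 3 large subunit peaks are shared with rps genes. Without the large subunit peaks and the second summit of rps-22, 1061 listed peaks of neither subunit were left, and their median was also 44.6%. It was 39.6% at 14229 promoter peaks that did not pass. The 300 bp around the annotated starts (250 upstream and 50 downstream) had a median GC content of 33.0% at rps genes and 34.3% at all protein-coding genes. The median of the rps windows was thus higher than that of the other listed windows at the summit, while that of the rps promoters was not higher around the start. The ranges overlapped, since the other listed windows ran from 14.9% to 67.3%, and 18 of 24 rps windows lay above the 44.6% median of that set.

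A set of 7 words, known elements and words of earlier results on these data, was counted on both strands of the same windows, and no one of them contains another. The homeodomain core TAATTA and the word CTGCGTCT were each in 0 of 24 listed rps windows, which by the exact 95% binomial (Clopper-Pearson) interval, covering counting error only, allows shares of up to 14.2%. TAATTA was in 2.20% of other listed coding promoter windows and CTGCGTCT in 5.14%. CCGCCC was in 2 rps windows (8.33%), against 4.59% of other listed windows, and TTTCAG in 2, against 11.5%. GAGAGA was in 1 rps window (4.17%), against 11.3%, TATAAA in 1, at rps-0, against 4.59%, and CACGTG in 1, at rps-29, against 2.66%. With 100 bp to each side of the summit, CTGCGTCT was in 1 rps window. In the 300 bp promoters TAATTA was in 6 of 31 rps genes (19.4%) and in 15.5% of protein-coding genes. A word that was not found says only that these letters were not in the window, and nothing about the factor.

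Other words recurred among the rps windows. They were picked from the same 24 windows, as words of 6 letters in at least 6 of them and at 4 times the share of other listed windows, so their rps shares are a description and the other sets are what to read them against. CGCAGC was in 9 of 24 rps windows (37.5%), 6 of the 28 further large subunit windows, those not shared with an rps gene (21.4%), 6.6% of the 1061 listed windows of neither subunit and 2.28% of windows that did not pass. CAGCCA was in 8 rps windows (33.3%), against 3.39% of other listed windows and 3.73% of windows that did not pass. AGCCAA was in 7 (29.2%), against 3.39% and 5.4%, and GCAGCC in 6 (25%), against 3.12% and 2.42%. These 3 overlap one another and CGCAGC, as in the stretch CGCAGCCAA of rps-3 and rps-21. ACTCAG was in 6 rps windows, 2.57% of other listed windows and 1.97% of windows that did not pass. CCTAAA was in 7 rps windows, against 4.77% of other listed windows and 4.72% of windows that did not pass. So not every word with a high rps share was more common in other listed windows than in those that did not pass. CCTAAA was also in the 300 bp promoters of 15 of 31 rps genes (48.4%), against 12.7% of protein-coding genes. In the 28 further large subunit windows CAGCCA was in 14.3%, AGCCAA in 10.7%, GCAGCC in 7.14%, ACTCAG in 17.9% and CCTAAA in 14.3%. At least 1 of the 6 words was in 18 of 24 rps windows (75%) and in 18.5% of other listed windows. The share was 50% in the 28 further large subunit windows (14 of them) and 17.7% in listed windows of neither subunit, so these words were not particular to rps peaks. The 8-letter word GCGAGACC was also picked after values were seen, though not by the rule for words of 6 letters. It was in 6 rps windows (25%), 9 of the 28 further large subunit windows (32.1%), 10.8% of the listed windows of neither subunit and 0.766% of windows that did not pass. It was also in 3 of the 6 windows of rps genes with a ranked peak only, rps-21 included.

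Longer words were shared to the letter. There were 6 words of 12 or more letters in at least 3 rps windows, some of them parts of others. Of 24 listed rps genes, 12 had at least 1 of them in the summit window and 15 in the listed peak. All 6 words were picked from these same windows, so the counts of 12 and 15 are in part built in. The matching share of other listed windows or peaks with any of the 6 was not counted. These counts rest in part on words that are common elsewhere: a 13-letter word in rps-11, rps-25 and rps-30 has 159 copies in the genome, of which 27 lay in a listed conservative peak, and a 12-letter part of it, also in rps-4, has 249 copies, of which 39 did. The longest had 17 letters, TACGGTAACACTCGTTT in rps-23, and was found in rps-23, rps-13 and rps-10. In rps-13 it stands on the other strand as AAACGAGTGTTACCGTA. The word was picked from windows in rps promoters, and the share of the genome that lies in promoter windows was not counted. It has 15 copies in the genome, all 15 in the promoter window of a protein-coding gene and 8 in a listed conservative peak. Of these, one lay in the peak of rps-18, 654 bp upstream of the start and outside the summit window, and others lay in listed peaks in the promoter windows of rpl-19, rpl-21 and npp-3, a nucleoporin gene. The word was in 3 rps windows, 1 of the 28 further large subunit windows, 2 of the 1061 listed windows of neither subunit and 3 windows that did not pass. A second word of 14 letters, CTGAGTATTCAACG, was in the windows of rps-0, rps-3 and rps-30, in the same orientation to the rps gene at all 3, and in the listed peaks of rps-20 and rps-22 outside the window. It has 20 copies in the genome, 11 of them in a listed conservative peak. It was in 3 rps windows, 3 of the 28 further large subunit windows, 2 of the 1061 listed windows of neither subunit and 0 of 14229 windows that did not pass. The 12-letter word TACGCAGCCAAT was in rps-3, in rps-14 as ATTGGCTGCGTA, and on one strand or the other in rps-19, and 5 of its 12 genome copies lay in a listed peak.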

How the data were processed

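ChIP-seq was done on 2 samples of 1 group, both whole young adult worms, per the labels. The authors deposited 8 peak lists on ce11. The authors deposited a signal for each peak and, in the ranked lists, the −log10 of its global rate, with no counts of reads, so depth and its precision are unknown. Which aligner and peak caller were used is not given in the sources used here. Peaks were called per replicate and on pooled samples, and the conservative ranked list was told from the pooled one by the coordinates of its inputs, of which 59.4% were peaks of the replicates, against 0.000999% in the other.

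Gene models were from Ensembl release 115 and the genome from RefSeq, both WBcel235, and all peaks ended within its chromosomes. A summit within 1000 bp upstream to 200 bp downstream of a transcript start was assigned to that gene, a step checked on simulated data. Replicate values at a conservative peak are those of the strongest ranked peak overlapping it by at least 1 bp. The members and lists were chosen with earlier results of these data known. No test was run, since there is 1 group. All rps genes are accounted for, and values in each list were required for the 6 listed genes of highest signal and for those outside the conservative list or differing between lists. The symbols rpsa-1 and nat-10 matched no gene. Coordinates are 1-based. Alternatives comprised the other lists, 2 other windows, nearest starts, peak overlap, a rate of at most 0.001 and summit windows of 100 bp to each side. Python 3.11.15, numpy 2.4.6, scipy 1.17.1 and matplotlib 3.10.9 were used.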

Additional observations from a re-analysis of the deposited data

How the results depend on the processing

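The count of 24 listed rps genes stayed within 1.5 times under every alternative except the nearest start, which left 11, having dropped rps-0, rps-1, rps-3, rps-10, rps-12, rps-13, rps-18, rps-19, rps-20, rps-23, rps-26, rps-29 and rps-30 by construction, since another start was nearer, and keeping rps-22 through its second summit alone. That alternative gave a median signal of 150 and a listed share of protein-coding genes of 4.63%, and counting only genes with a ranked summit raised that share to 14.2%. Leaving out 1 replicate gave 18 to 19 rps genes, median signals of 91.9 to 113, median distances of 279 to 292 bp and coding shares of 5.32% to 6.06%. The scale of the signal differs between lists. A rate of at most 0.001 left 19 rps genes, without rps-3, rps-8, rps-13, rps-17 and rps-25, with a median signal of 206. The narrow window left out rps-18 (23 genes), the wide one added rps-16 through the fib-1 peak (25 genes), and the pooled list left out rps-13 and added rps-6, rps-7 and rps-21. With 100 bp to each side of the summit, in longer windows by construction, GAGAGA was in 25% of listed rps windows (4.17% with 50 bp), TATAAA in 12.5% (4.17%), TTTCAG in 20.8% (8.33%), CCGCCC in 12.5% (8.33%) and CTGCGTCT in 4.17% (0%), while TAATTA (0%) and CACGTG (4.17%) did not move. In other listed windows of that length GAGAGA was in 17.8%, TATAAA in 15.7%, TTTCAG in 28.3%, CCGCCC in 7.8% and CTGCGTCT in 7.34%. Of the values of single rps genes over the alternatives, 209 stayed listed or unlisted, 33 went from listed to unlisted and 6 from unlisted to listed. Under the other windows and the nearest start, such a change came from the assignment of a peak to a gene and not from the list threshold. No paired analysis was possible because the series has 1 group. Without read counts, depth sets no limit that can be stated.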
